A study of Mus musculus with 8 samples.

Results

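The subject of this report is the region by hyperoxia interaction in mouse retina, the extent to which the response of a gene to raised oxygen differed between the superior and the inferior retina. It was taken as the hyperoxia minus control change in the inferior retina less the same change in the superior retina, on the log2 scale, and is called the differential response below. It was computed from group means for all 28853 probe sets, over 8 of the 8 arrays of the series. The retinas came from C57BL/6J mice, a pigmented laboratory strain, reared and kept in dim cyclic light of 5 lux for 12 h and darkness for 12 h. The hyperoxia superior and hyperoxia inferior groups came from mice kept in 75% oxygen for 14 days, starting at a postnatal age of 83 to 90 days. The control superior and control inferior groups came from mice in room air, killed at the same age as the exposed mice. Each group had 2 arrays, and each sample pooled the tissue of 1 male and 1 female. Nothing in the labels ties a superior sample to an inferior sample of equal number, and the p-values below measure the spread between pools, part of which may be technical.

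The retina is supplied with oxygen from the choroid, and rods, which make up most of its cells, use much of that supply. Raised oxygen is toxic to photoreceptors. Stressed photoreceptors signal to Müller cells, the radial glia of the retina, which then switch on glial filament and growth factor genes, while microglia, the resident phagocytes, take up debris and make complement proteins. A positive differential response means that the inferior retina moved further up, or less far down, than the superior retina; a negative one means the reverse.

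The regional labels were borne out by genes with known dorsal and ventral expression. *Tbx5*, a dorsal patterning factor, lay between 6.29 and 6.48 on the superior arrays and between 4.99 and 5.34 on the inferior arrays (log2 values). *Vax2*, its ventral counterpart, and *Opn1sw*, the short-wave cone opsin, were higher on every inferior array than on every superior array, and *Opn1mw*, the medium-wave opsin, was lower. Rod and cone transcripts marked the tissue as neural retina, with *Nrl*, a rod transcription factor, between 10.11 and 10.66 on all arrays. *Xist*, which females express, lay between 10.82 and 11.40 on all arrays, as pools that hold a female would give. Lens transcripts set 1 array apart: the summed linear signal of 24 lens genes was 47700 on control inferior replicate 2 and between 1840 and 4130 on the other 7 arrays. Transcripts of the retinal pigment epithelium, the pigmented layer behind the photoreceptors, also varied, with summed signals of 25 genes of 6480 and 10300 in control superior, 8790 and 14200 in control inferior, 14600 and 15500 in hyperoxia superior and 14100 and 13300 in hyperoxia inferior samples. Values that touch a result are given beside it.

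Across all probe sets, the differential response passed the limma test for 1 probe set at an adjusted p under 0.05, that of *Edn2* (0.00347% of those tested). At an unadjusted p under 0.05 it was met by 1744 probe sets (6.04%), 871 positive (3.02%) and 873 negative (3.03%). The median standard error of a differential response was 0.16, which gives a 95% interval of 0.35 on either side for a probe set of median spread. Named genes other than *Edn2* are therefore given with their values and their error, and their differential responses did not pass the adjusted test.

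The genes with an unadjusted p under 0.01 showed how the positive and the negative side differed in form. On the positive side were 146 of 19938 genes (0.732%), with a median change of 0.63 in inferior retina against 0.01 in superior. Their median inferior minus superior difference was -0.16 in control retinas and 0.47 in hyperoxia. Both hyperoxia inferior arrays were above the other 6 in 99 of the 146, where 7.28% of all genes had that order. After hyperoxia the mean was higher in both regions in 74 of the 146, and higher inferiorly but lower superiorly in 72. Among all 10089 genes of positive sign, these forms held in 3181 and 4549. On the negative side were 93 genes (0.466%), with a median change of -0.35 in inferior retina against 0.25 in superior. After hyperoxia the mean was lower inferiorly and higher superiorly in 83 of the 93, and lower in both regions in 10. These forms held in 4502 and 2920 of all 9849 genes of negative sign. Several orders of the groups occurred on this side. Both hyperoxia inferior arrays were lowest in 37 (5.12% of all genes had that order) and both control inferior arrays highest in 30. Both hyperoxia superior arrays were highest in 25 and both control superior arrays lowest in 17 (4.39% of all genes). Among all 9849 genes of negative sign, the same orders held, in turn, in 978, 750, 691 and 742. These counts are descriptions, since the threshold itself selects genes with such orders.

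**Figure D1:**
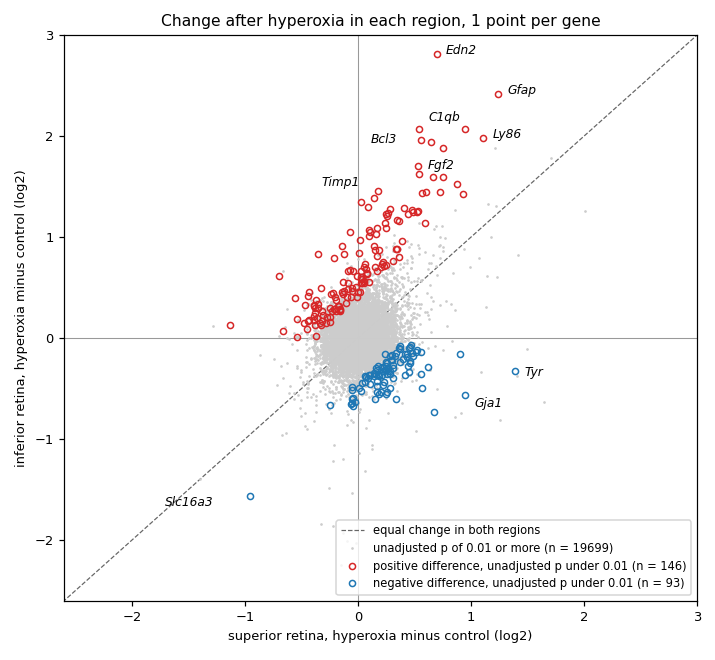
Change after hyperoxia (hyperoxia minus control, log2) in the superior retina on the horizontal axis and in the inferior retina on the vertical axis, with 1 point for each of 19938 genes and a dashed line where both changes are equal. The 146 genes with a positive differential response (unadjusted p under 0.01) lie mainly above 0 on the vertical axis and near 0 on the horizontal axis, with *Edn2* at 2.81 and 0.70, while the 93 negative genes lie mostly in the lower right quadrant.

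A further selection was made on the linear scale. The fold margin, the fold ratio of hyperoxia to control in the inferior retina less that in the superior retina, was over 0.5 in size together with an unmoderated p under 0.05 for 137 probe sets (0.475%), of which 100 were positive (0.347%) and 37 negative (0.128%). The split depended on the setting. It was nearer even with the block for pools within treatment (84 of 160 positive) and with a log2 difference over 0.5 in place of the fold margin (170 of 307). The positive excess was kept with the lens covariate (120 of 160), quantile normalization (102 of 135) and median centring (96 of 133). With the pigment epithelium covariate 123 of 191 were positive. The split also moved with the array left out. Among genes, 79 were positive (0.396%) and 17 negative (0.0853%). A fold margin weighs rises more than falls of the same log2 size, so its split of directions is set in part by the scale.

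*Edn2* encodes endothelin 2, a vasoactive peptide that stressed photoreceptors release and that signals to Müller cells. Its log2 value was 7.55 and 7.43 in control superior, 6.91 and 6.95 in control inferior, 8.20 and 8.17 in hyperoxia superior and 9.76 and 9.72 in hyperoxia inferior samples. The control inferior arrays were thus the lowest and the hyperoxia inferior arrays the highest, with no overlap between any of the 4 groups. The change was 2.81 in the inferior retina, or 7.02-fold (adjusted p = 9.47e-06), and 0.70 in the superior retina, or 1.62-fold (adjusted p = 0.0913). The differential response was 2.11 ± 0.12 (SE; 95% interval 1.84 to 2.39; adjusted p = 0.00185), and the fold margin was 5.40. The order of the regions turned over, from an inferior minus superior difference of -0.56 in control retinas (adjusted p = 0.814) to 1.56 in hyperoxia (adjusted p = 0.00132), where 0.155% of genes were higher in the inferior retina by the same test. With the summary of pigment epithelium transcripts as a covariate the differential response was 2.07 (adjusted p = 0.0578), and with a block for pools within each treatment it was 2.11 (adjusted p = 0.0925).

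Other genes of the endothelin pathway gave negative or small values. Of 7 genes measured, the 1 positive at an unadjusted p under 0.05 was *Edn2* itself and 2 were negative (28.6%, against 2.49% of all genes), and the median differential response was -0.26. The negative count was 0 with the pigment epithelium covariate, 1 without control inferior replicate 2 and 3 without replicate 1. *Edn1*, the gene of the related peptide endothelin 1, had 6.64 and 6.71 in control superior, 6.83 and 6.92 in control inferior, 6.80 and 7.10 in hyperoxia superior and 6.82 and 6.73 in hyperoxia inferior samples. Its groups overlapped, and the differential response was -0.38 ± 0.16 (unadjusted p = 0.0434, adjusted p = 0.82). *Ednrb*, the receptor that Müller cells carry, gave -0.26 (95% interval -0.57 to 0.05). *Mme*, which encodes neprilysin, a protease that degrades peptides such as endothelins, was highest on control inferior replicate 2 at 6.90, against 5.95 on the other control inferior array, and its value of -1.01 ± 0.36 was -0.53 without that array and -0.49 with the pigment epithelium covariate. The promoter of *Edn2* is shown because this gene alone passed the test. It spans 250 bases before and 50 after the start that RefSeq annotates, at chr4:120160956-120161255 on the plus strand of GRCm38.p6, and the capitals mark a core of the hypoxia-inducible factor motif, ACGTG or GCGTG read on either strand.

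Edn2: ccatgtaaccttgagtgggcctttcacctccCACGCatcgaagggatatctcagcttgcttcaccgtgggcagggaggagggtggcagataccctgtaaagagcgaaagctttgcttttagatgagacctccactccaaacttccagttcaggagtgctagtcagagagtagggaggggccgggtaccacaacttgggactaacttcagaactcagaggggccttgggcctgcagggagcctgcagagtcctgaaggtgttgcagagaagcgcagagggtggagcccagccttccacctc

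The window held 1 such core, on the reverse strand, and 43.8% of 32851 promoter windows of the same length held at least 1. The share was 51.7% of 19177 windows of genes on the array, 34.8% of 135 windows of the positive genes at an unadjusted p under 0.01 and 43.0% of 86 windows of the negative genes. A match of this kind is a description of the letters and not a bound site.

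The glial stress list held the largest share of positive genes among the lists examined. It includes *Edn2* and was chosen with earlier results of these data known, so its shares are descriptions. Of 29 genes measured, 20 were positive and 0 negative at an unadjusted p under 0.05 (69.0%, against 2.94% of all genes), and the median differential response was 0.57. The median change of the same 29 genes was 1.26 in inferior retina against 0.39 in superior; 23 rose in the inferior retina and 2 in the superior at an adjusted p under 0.05, where 0.542% and 0.0201% of all genes did. Since more cells of a type and more RNA per cell cannot be told apart in whole tissue, these are levels in the tissue and not in a cell. The count of 20 was 16 with the pigment epithelium covariate and 19 without either control inferior array.

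*Fgf2* encodes basic fibroblast growth factor, which protects photoreceptors in several models of degeneration. It had 8.10 and 8.14 in control superior, 8.07 and 7.95 in control inferior, 8.64 and 8.67 in hyperoxia superior and 9.72 and 9.57 in hyperoxia inferior samples. The control groups lay together, the hyperoxia superior arrays were above them and the hyperoxia inferior arrays higher still. This made a differential response of 1.09 ± 0.13 (SE; adjusted p = 0.23), from a rise of 1.63 in the inferior retina (adjusted p = 0.00034) and a change of 0.54 in the superior (adjusted p = 0.302). *Fgf2os*, a transcript from the strand opposite *Fgf2*, gave 1.25 ± 0.27 on a dimmer probe set, with values from 6.04 to 6.66 on 6 arrays and of 7.83 and 7.40 in hyperoxia inferior samples. Other growth factor genes gave smaller values: of 21 genes of photoreceptor-protecting factors and their receptors, 1 was positive, *Fgf2* itself, and 1 negative (4.76% each, against 2.94% and 2.49% of all genes), with a median of 0.02; without control inferior replicate 1, 4 were negative.

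*Gfap*, the intermediate filament gene of astrocytes and stressed Müller cells, differed in that it rose in both regions. Its values were 7.05 and 6.80 in control superior, 6.72 and 6.63 in control inferior, 8.05 and 8.29 in hyperoxia superior and 9.04 and 9.16 in hyperoxia inferior samples. The 4 groups did not overlap. The rise was 2.42 in the inferior retina (adjusted p = 0.000259) and 1.24 in the superior (adjusted p = 0.0296), a differential response of 1.18 ± 0.17 (95% interval 0.79 to 1.56; adjusted p = 0.307). *Timp1*, an inhibitor of matrix metalloproteases, lay between 5.76 and 6.21 on 6 arrays and at 7.42 and 7.22 in hyperoxia inferior samples. Its differential response was 1.27 ± 0.16 (adjusted p = 0.242), with changes of 1.46 in the inferior (adjusted p = 0.00114) and 0.18 in the superior retina (adjusted p = 0.908). Among 15 protease inhibitor genes 4 were positive and 1 negative (26.7% and 6.67%, against 2.94% and 2.49% of all genes), and their median of 0.17 was 0.34 without control inferior replicate 2 and 0.07 without replicate 1. The negative one was *Serpine3*, a serpin of little known function. Its rise passed the adjusted test in both regions and was larger in the superior retina, 2.01 (adjusted p = 0.0296), than in the inferior, 1.26 (adjusted p = 0.0329). Of the genes named here, no other met both conditions. The differential response of *Serpine3* was -0.75 ± 0.27, and -0.33 with the pigment epithelium covariate.

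**Figure D2:**
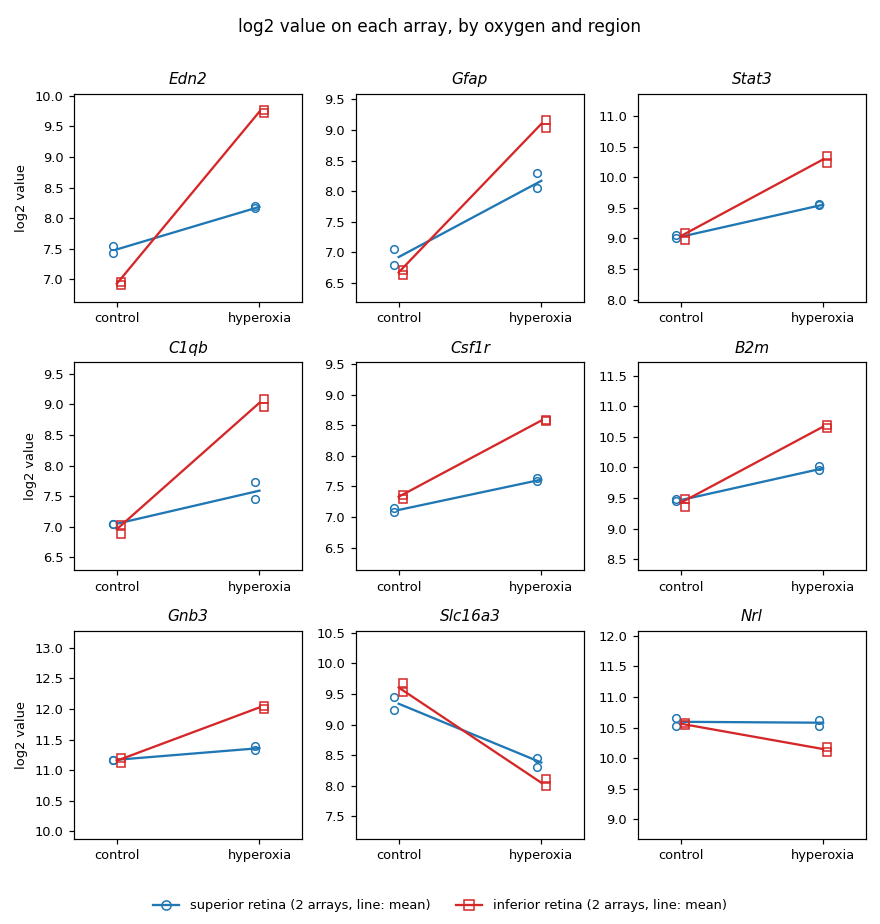
log2 values of 9 genes in control and hyperoxia, with blue circles for the 2 superior and red squares for the 2 inferior arrays of each condition and lines through the group means; all panels have the same height on the log2 axis. The red line is steeper upward than the blue line for *Edn2*, *Gfap*, *Stat3*, *C1qb*, *Csf1r*, *B2m* and *Gnb3*, steeper downward for *Slc16a3*, and for *Nrl* the inferior mean was lower in hyperoxia (change -0.41, adjusted p = 0.136) and the superior mean close to control (-0.02).

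Genes of signalling through STAT3, the factor that relays cytokines of the interleukin 6 family, leaned to the same sign. The lists overlap: *Stat3*, *Socs3*, *Osmr*, *Bcl3* and *Cebpd* are also members of the glial stress list. Several other lists share members with it too, such as *Timp1*, *Lcn2* and *Mt1*. Of 26 genes of the LIF, oncostatin and STAT3 list, 6 were positive and 0 negative (23.1%, against 2.94% of all genes), with a median of 0.13; with the pigment epithelium covariate 3 were positive. *Stat3* itself lay between 8.98 and 9.09 on the 4 control arrays and had 9.54 and 9.56 in hyperoxia superior and 10.35 and 10.23 in hyperoxia inferior samples. Control arrays overlapped and the hyperoxia groups stood apart, inferior above superior. *Stat3* gave a differential response of 0.74 ± 0.13 (adjusted p = 0.307) and an inferior rise of 1.26 (adjusted p = 0.000931). *Socs3*, a feedback inhibitor of this pathway, lay between 7.33 and 7.64 on 6 arrays and at 8.37 and 8.65 in hyperoxia inferior samples, with a differential response of 0.91 ± 0.17 (adjusted p = 0.386). *Osmr*, the receptor subunit for oncostatin M, rose in both regions, by 1.43 in the inferior (adjusted p = 0.00082) and 0.93 in the superior retina (adjusted p = 0.0457), and its differential response was smaller, 0.50 ± 0.14. *Bcl3*, a nuclear partner of NF-kappaB, gave 1.40 ± 0.23 (adjusted p = 0.307), with values between 6.42 and 7.25 on 6 arrays and of 8.83 and 8.48 in hyperoxia inferior samples. *Cebpd*, a transcription factor of the acute response, gave 0.45 ± 0.13. *Bcl3* and *Cebpd* were the 2 positive genes of 16 in the list of NF-kappaB and C/EBP factors (12.5%, against 2.94%), whose median was 0.11; with the pigment epithelium covariate 1 was positive.

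The promoters of *Gfap* and *Socs3* are shown because both windows hold the palindrome TTCNNNGAA, the letters that STAT factors recognise, in capitals below. They are RefSeq windows of GRCm38.p6 at chr11:102897151-102897450 and chr11:117969317-117969616, both on the minus strand and printed in the direction of the gene.
Gfap: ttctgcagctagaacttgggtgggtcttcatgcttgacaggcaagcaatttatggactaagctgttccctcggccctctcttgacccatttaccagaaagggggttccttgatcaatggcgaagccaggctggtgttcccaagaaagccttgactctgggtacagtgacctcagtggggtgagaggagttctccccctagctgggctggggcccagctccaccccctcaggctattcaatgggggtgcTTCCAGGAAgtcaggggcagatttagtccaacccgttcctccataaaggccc
Socs3: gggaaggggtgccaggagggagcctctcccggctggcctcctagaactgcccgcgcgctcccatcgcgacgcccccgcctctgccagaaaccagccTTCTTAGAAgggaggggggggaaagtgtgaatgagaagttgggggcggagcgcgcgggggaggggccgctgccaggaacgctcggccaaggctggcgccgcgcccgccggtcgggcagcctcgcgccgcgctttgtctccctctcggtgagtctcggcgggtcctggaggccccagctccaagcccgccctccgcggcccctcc

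The palindrome began 2 bases before the annotated start of *Gfap* and 154 before that used for *Socs3*. The *Socs3* window lies within the span annotated for that gene, so its start is not the outermost one. It was in 8.30% of all 32851 windows, in 7.66% of those of genes on the array, in 10.4% of 135 windows of the positive genes at an unadjusted p under 0.01 that matched a RefSeq window (117 genes), and in 4.65% of 86 windows of the negative genes (67 genes). The window of *Edn2* holds none of these letters in this order.

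Complement genes also leaned positive, led by C1q, the protein complex that starts the classical cascade and that microglia make in the retina. Of 23 genes, 8 were positive and 1 negative (34.8%, against 2.94%), with a median of 0.28; without control inferior replicate 2 the positive count was 5. *C1qb* had 7.05 and 7.05 in control superior, 6.89 and 7.03 in control inferior, 7.73 and 7.45 in hyperoxia superior and 8.96 and 9.09 in hyperoxia inferior samples. The hyperoxia inferior arrays stood more than 1 log2 unit above all others. The differential response was 1.53 ± 0.16 (95% interval 1.16 to 1.90; adjusted p = 0.129), the second smallest p of all named genes, from a rise of 2.07 in the inferior (adjusted p = 0.00034) and a change of 0.54 in the superior retina (adjusted p = 0.461). *C1qc* and *C1qa*, the genes of the other chains of the complex, gave 1.12 ± 0.18 and 1.13 ± 0.23, with inferior rises of 2.07 and 1.88. *C3ar1*, a receptor for a complement fragment, had a change of 0.02 in the superior retina and 0.97 in the inferior (adjusted p = 0.0284). The promoter of *C1qb*, at chr4:136886151-136886450 on the minus strand of GRCm38.p6, is printed with GAGGAA in capitals, the core that PU.1, a factor of the myeloid lineage, recognises.
C1qb: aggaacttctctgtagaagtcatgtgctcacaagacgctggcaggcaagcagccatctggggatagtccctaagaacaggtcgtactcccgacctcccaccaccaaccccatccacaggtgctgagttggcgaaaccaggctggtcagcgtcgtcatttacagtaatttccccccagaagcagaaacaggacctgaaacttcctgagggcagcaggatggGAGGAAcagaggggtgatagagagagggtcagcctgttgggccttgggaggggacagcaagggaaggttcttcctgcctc

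These letters, read on both strands, were in 28.3% of all windows, in 27.0% of those of genes on the array, in 33.3% of the windows of the positive genes and in 30.2% of those of the negative genes.

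Genes that mark microglia in the healthy retina leaned the same way. All 17 measured had a differential response of 0 or above, 6 were positive and 0 negative at an unadjusted p under 0.05 (35.3%, against 2.94%), and the median was 0.31. *Csf1r*, the receptor on which microglia depend for survival, had 7.08 and 7.15 in control superior, 7.36 and 7.30 in control inferior, 7.59 and 7.63 in hyperoxia superior and 8.57 and 8.58 in hyperoxia inferior samples. Each group was apart from the others, in that order. Its differential response was 0.76 ± 0.12 (adjusted p = 0.307). *Fcrls*, a receptor-like gene of microglia, rose by 1.35 in inferior retina (adjusted p = 0.00557) against a change of 0.03 in superior (adjusted p = 0.991); it lay between 5.62 and 6.08 on 6 arrays and at 6.99 and 7.19 in hyperoxia inferior samples. *Cd33*, a sialic acid receptor, and *Aif1*, which encodes the microglial protein Iba1, gave 0.66 ± 0.13 and 0.31 ± 0.12.

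Receptors and adaptors of phagocytes had the second highest share. Of 33 genes, 17 were positive and 0 negative (51.5%, against 2.94%), with a median of 0.45, and both hyperoxia inferior arrays lay above the other 6 in 25 of the 33, where 7.28% of all genes did. *Tyrobp*, an adaptor for several activating receptors, had 6.22 and 6.08 in control superior, 6.25 and 6.30 in control inferior, 6.56 and 6.43 in hyperoxia superior and 7.44 and 7.45 in hyperoxia inferior samples. It gave 0.82 ± 0.13, and *Fcer1g*, the adaptor of Fc receptors, 0.87 ± 0.14 (adjusted p = 0.307 for both). *Mpeg1*, which encodes the pore-forming perforin-2 of macrophages, gave 1.29 ± 0.22. *Ly86*, a secreted partner of the receptor CD180, rose in both regions, by 1.98 in the inferior (adjusted p = 0.000291) and 1.11 in the superior retina (adjusted p = 0.0296), with a differential response of 0.87 ± 0.15.

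Markers of activated microglia and of the lysosome gave a mixed picture. Of 20 genes of disease-associated microglia, 5 were positive and 1 negative (25.0% and 5.00%, against 2.94% and 2.49% of all genes), with a median of 0.27; 3 were negative without control inferior replicate 1 and 0 without replicate 2. *Cd68*, a lysosomal glycoprotein of phagocytes, gave 1.18 ± 0.22 and an inferior rise of 1.71 (adjusted p = 0.00216), and *Cst7*, an inhibitor of lysosomal proteases, 1.12 ± 0.26 with an inferior change of 1.05 (adjusted p = 0.0609). *Cd9*, a tetraspanin, and *Axl*, a receptor kinase for the uptake of dying cells, gave 0.65 ± 0.20 and 0.64 ± 0.20. Values in this list ran from -1.61 to 1.18, so the largest in size was negative, while the members named here are all positive. Of 24 genes of lysosomal enzymes and membrane proteins 1 was positive, *Ctss*, at 0.85 ± 0.15 (adjusted p = 0.307); it encodes cathepsin S, a protease of antigen-presenting cells. That list had a median of 0.13 and 4.17% positive members, against 2.94% of all genes; with the pigment epithelium covariate 3 were positive, against 3.15% of all genes, and with the lens covariate 2. Markers of other blood leukocytes had 2 positive members of 22 (9.09%) and a median of 0.03.

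Interferon-induced genes leaned positive with smaller values. Of 28 measured, 10 were positive and 0 negative (35.7%, against 2.94%), with a median of 0.30. In 18 both hyperoxia inferior arrays lay above the other 6, where 7.28% of all genes had that order. The positive count was 6 without control inferior replicate 2 and 5 with the pigment epithelium covariate. *Irf9*, a subunit of the interferon-activated transcription complex, had 7.32 and 7.30 in control superior, 7.34 and 7.35 in control inferior, 7.90 and 7.90 in hyperoxia superior and 8.39 and 8.59 in hyperoxia inferior samples. Control arrays lay together, hyperoxia superior arrays above them and hyperoxia inferior arrays highest. Its differential response was 0.55 ± 0.13 (adjusted p = 0.593). *Irgm1*, a guanosine triphosphatase of cell defence, gave 0.87 ± 0.20, *Usp18*, an inhibitor of interferon signalling, 0.63 ± 0.17, and *Bst2*, which tethers viruses to the cell surface, 0.61 ± 0.14. *Ifi214*, among the 15 largest positive values at 1.26 ± 0.32, was of another form: its inferior change was 0.13 and its superior change -1.13, on a dim probe set with values between 3.13 and 4.45.

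Among antigen-presenting molecules, 2 of 17 class I genes were positive and 0 negative (11.8% positive, against 2.94% of all genes), with a median of 0.16; without control inferior replicate 2, and with the lens covariate, 4 were positive. *B2m*, the light chain of all class I molecules, had 9.48 and 9.45 in control superior, 9.35 and 9.49 in control inferior, 9.95 and 10.02 in hyperoxia superior and 10.69 and 10.64 in hyperoxia inferior samples. Its differential response was 0.73 ± 0.13 and that of *H2-Q4*, a class I heavy chain gene, 0.94 ± 0.15 (adjusted p = 0.307 for both). The heavy chain genes resemble each other closely, and how far their probes share signal was not tested. Of 23 class I genes listed, 17 had a probe set with 1 symbol, and the rest are not in these counts. The study also listed *H2-D1*, *H2-K1* and *H2-Q7* as regulated differently by region, and these were not among the positive genes counted here. Of 6 class II genes, 0 were positive and 2 negative (33.3%, against 2.49%), with a median of -0.12; with the pigment epithelium covariate 1 was negative and the median was 0.02. *H2-Ab1* and *H2-Aa*, the chains of the class II molecule I-A, gave -0.51 ± 0.16 and -0.40 ± 0.14 (adjusted p = 0.711 and 0.79). No test compared the 2 classes with each other.

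Chemokines and cytokines had 5 positive and 1 negative member of 34 (14.7% and 2.94%, against 2.94% and 2.49% of all genes), with a median of 0.17. *Ccl3*, which attracts macrophages, had 5.42 and 5.62 in control superior, 4.87 and 5.42 in control inferior, 5.49 and 5.72 in hyperoxia superior and 6.40 and 6.49 in hyperoxia inferior samples. Only the hyperoxia inferior arrays stood apart, and the inferior rise was 1.30 (adjusted p = 0.0203) against 0.09 in the superior retina (adjusted p = 0.981). *Ccl3* thus had a differential response of 1.21 ± 0.25 (adjusted p = 0.474). *Cxcl13*, a chemokine for B cells, took another form: at 0.57 ± 0.17 it was lowest in the control inferior retina, with 5.72 and 5.75 against 6.07 to 6.44 on the other arrays, so that hyperoxia went with a loss of the regional difference. The 5 positive cytokine genes were thus not all of 1 pattern.

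Together, 11 lists of glial stress, STAT3 and NF-kappaB signalling, complement, microglia, phagocytosis, lysosome, class I presentation, interferon and cytokines held 246 genes, or 1.23% of all genes. Of these, 48 were among the 146 positive genes at an unadjusted p under 0.01, which is 19.5% of the lists against 0.732% of all genes. Among the 93 negative genes was 1, or 0.407% of the lists against 0.466% of all genes. Genes in more than 1 list were counted once. The lists and their members were chosen with earlier results of these data known, so these shares are descriptions.

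**Figure D3:**
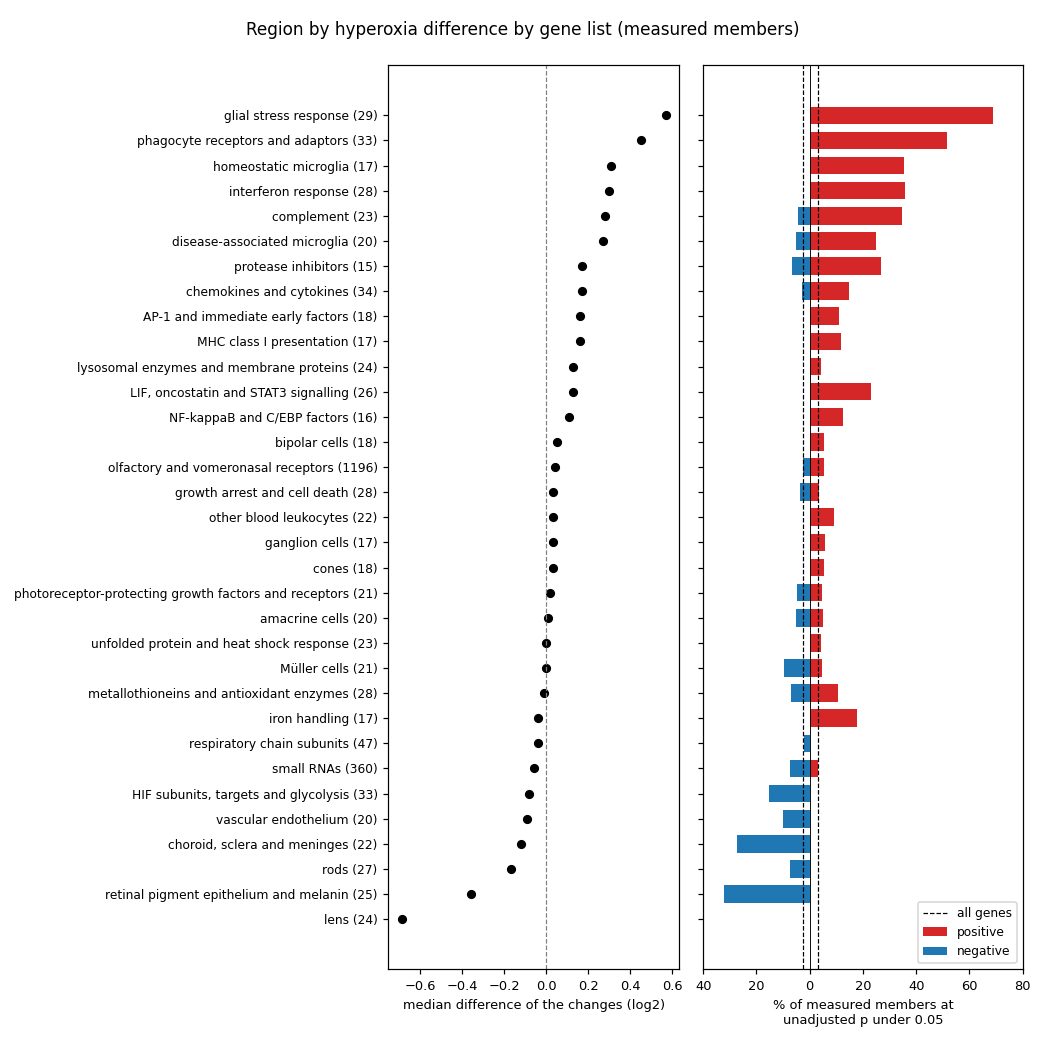
Differential response by gene list for the lists with 15 or more measured members (number in brackets), with the median log2 value on the left and, on the right, the percentage of members with an unadjusted p under 0.05 that were positive (red) or negative (blue, drawn to the left); dashed lines mark all genes, at 2.94% and 2.49%. Glial stress and phagocyte lists reach 69.0% and 51.5% positive, and the pigment epithelium and choroid lists 32.0% and 27.3% negative.

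Genes of metal and redox balance split within their lists. *Slc25a37*, the mitochondrial iron importer mitoferrin 1, had 8.02 and 7.97 in control superior, 7.75 and 7.87 in control inferior, 8.36 and 8.19 in hyperoxia superior and 9.12 and 9.06 in hyperoxia inferior samples. As for *Edn2*, the control inferior arrays were the lowest and the hyperoxia inferior arrays the highest, and the differential response was 1.00 ± 0.14 (adjusted p = 0.285). *Lcn2*, which binds iron carriers of bacteria and is released by stressed glia, gave 0.84 ± 0.14, and *Cp*, the copper-bearing iron oxidase ceruloplasmin, 0.37 ± 0.13. These were the 3 positive genes of 17 in the iron list (17.6%, against 2.94% of all genes), whose median was -0.04; without control inferior replicate 2 the count was 2. Of 28 genes of metallothioneins and antioxidant enzymes, 3 were positive and 2 negative (10.7% and 7.14%, against 2.94% and 2.49% of all genes), with a median of -0.01; 0 were negative without control inferior replicate 2 and with the pigment epithelium covariate. *Mt2* and *Mt1*, which bind zinc and copper, gave 0.80 ± 0.21 and 0.57 ± 0.13, and *Hmox1*, heme oxygenase 1, gave 0.48 ± 0.18, which was 0.30 without hyperoxia inferior replicate 2. *Slc7a11*, the cystine importer for glutathione synthesis, gave -0.80 ± 0.28, with 7.75 and 8.34 in control inferior and between 7.04 and 7.73 on the other arrays; it was -0.50 without control inferior replicate 2 and -1.09 without replicate 1.

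Of 28 genes of growth arrest and cell death, 1 was positive and 1 negative (3.57% each, against 2.94% and 2.49% of all genes), with a median of 0.03; the positive count was 2 without either control inferior array and with either covariate. The positive one, *Gadd45b*, a regulator of stress kinases, rose by 1.45 in the inferior retina (adjusted p = 0.00114) and had a differential response of 0.73 ± 0.16. *Atf3* and *Fosl1*, factors that bind AP-1 sites, gave 0.55 ± 0.15 and 0.53 ± 0.12 and were the 2 positive genes of 18 in the list of immediate early factors (11.1%, against 2.94%), of which 4 were positive without control inferior replicate 2 and with the lens covariate. Genes of the unfolded protein and heat shock response had a median of 0, with 1 positive of 23 (4.35%). The 47 genes of the respiratory chain had a median of -0.04, with 0 positive and 1 negative (2.13% negative, against 2.49% of all genes).

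Genes under control of hypoxia-inducible factors (HIF), which raised oxygen turns down, leaned negative. Of 33 genes of HIF subunits, targets and glycolysis, 0 were positive and 5 negative (15.2%, against 2.49% of all genes), with a median of -0.08; with the pigment epithelium covariate 2 were negative. The median change was -0.42 in inferior retina against -0.20 in superior. *Slc16a3*, the lactate exporter MCT4, had 9.23 and 9.45 in control superior, 9.68 and 9.53 in control inferior, 8.45 and 8.31 in hyperoxia superior and 8.11 and 7.99 in hyperoxia inferior samples. The groups did not overlap, and hyperoxia went with lower values in both regions. The inferior retina fell by 1.56 (adjusted p = 0.000931), the superior change was -0.96 (adjusted p = 0.0719) and the differential response was -0.60 ± 0.16 (adjusted p = 0.643). *P4ha1*, a collagen prolyl hydroxylase subunit, and *Pdk1*, which limits pyruvate entry to mitochondria, fell in the inferior retina (5 genes of the list did, against 0.0552% of all genes), by 0.90 and 0.82 (adjusted p = 0.0106 and 0.0226) and gave -0.45 ± 0.15 and -0.43 ± 0.16. *Egln3*, an oxygen-sensing hydroxylase, gave -0.49 ± 0.15. *Slc2a1*, the glucose carrier GLUT1 of photoreceptors, pigment epithelium and vessels, gave -0.53 ± 0.21, which was -0.17 with the pigment epithelium covariate. *Hif1a* itself lay between 11.98 and 12.13 on all arrays, with a differential response of 0.02 (95% interval -0.27 to 0.31) whose sign turned under several alternatives.

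Photoreceptor genes gave small differential responses. Of 27 rod genes, 3 had a positive sign, 0 were positive and 2 negative at an unadjusted p under 0.05 (7.41%, against 2.49%), and the median was -0.17; the median change was -0.18 in inferior retina against -0.02 in superior. The median moved with the hyperoxia inferior arrays, to -0.27 without replicate 1 and -0.02 without replicate 2. *Nrl* had 10.53 and 10.66 in control superior, 10.58 and 10.55 in control inferior, 10.53 and 10.63 in hyperoxia superior and 10.19 and 10.11 in hyperoxia inferior samples. Only the hyperoxia inferior arrays stood apart, below the rest, with a differential response of -0.39 ± 0.13 (adjusted p = 0.782). *Fscn2*, an actin-bundling protein of outer segments, and *Cngb1*, a subunit of the rod channel, gave -0.32 ± 0.14 and -0.37 ± 0.18. Of 18 cone genes, 1 was positive and 0 negative (5.56% positive, against 2.94% of all genes), with a median of 0.03. That gene, *Gnb3*, a transducin subunit of cones and ON bipolar cells, had 11.17 and 11.17 in control superior, 11.20 and 11.11 in control inferior, 11.39 and 11.33 in hyperoxia superior and 12.00 and 12.05 in hyperoxia inferior samples. It stood out from its list at 0.68 ± 0.12 (adjusted p = 0.311), with an inferior rise of 0.87 (adjusted p = 0.00368), among the brightest probe sets named here.

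The other retinal cell types had medians near 0, of 0 for Müller cells, 0.03 for ganglion cells, 0.05 for bipolar cells, 0.01 for amacrine cells and 0.04 for horizontal cells. Single members departed from these medians. *Crym*, which binds thyroid hormone, gave 0.85 ± 0.21 with an inferior rise of 1.45 (adjusted p = 0.0044). *Glul*, the glutamine synthetase of Müller cells, and *Spc25*, a kinetochore gene listed with them, fell in the inferior retina by 0.70 and 0.94 (adjusted p = 0.0416 and 0.00379) and gave -0.44 ± 0.16 and -0.30 ± 0.13. *Penk*, which encodes the enkephalin precursor of some amacrine cells, gave -0.70 ± 0.19. The dorsal patterning list had a median of -0.18. *Bmp2*, a growth factor in it, gave -0.77 ± 0.21, which was -0.47 with the pigment epithelium covariate. *Tbx5* and *Vax2*, which set the regional identity, gave -0.25 (95% interval -0.56 to 0.06) and 0.55 (95% interval -0.04 to 1.13). *Opn1mw* gave -0.01 (95% interval -0.44 to 0.43), and its sign turned under several alternatives.

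Lists of tissue around the retina (pigment epithelium, choroid, vessels and lens, 102 genes in 5 lists) held 5 of the 93 negative genes at an unadjusted p under 0.01, or 4.90% of their members against 0.466% of all genes, and 0 of the 146 positive genes. Of 25 genes of the retinal pigment epithelium and melanin, 0 were positive and 8 negative (32.0%, against 2.49% of all genes), with a median of -0.36 and a negative sign in 21. The negative count was 5 without control inferior replicate 2 and 3 with the covariate made from the list itself. The median change was -0.01 in inferior retina against 0.52 in superior, so this list differed from the HIF list in that the superior retina carried the shift. Measured against the mean of each gene over all arrays, the list had medians of -0.53 and -0.10 in control superior, -0.28 and 0.19 in control inferior, 0.25 and 0.26 in hyperoxia superior and -0.01 and 0.09 in hyperoxia inferior samples. Replicates within each control group lay further apart than the regions did within either oxygen condition. The part that the amount of adhering pigment epithelium plays in these values was not tested.

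**Figure D4:**
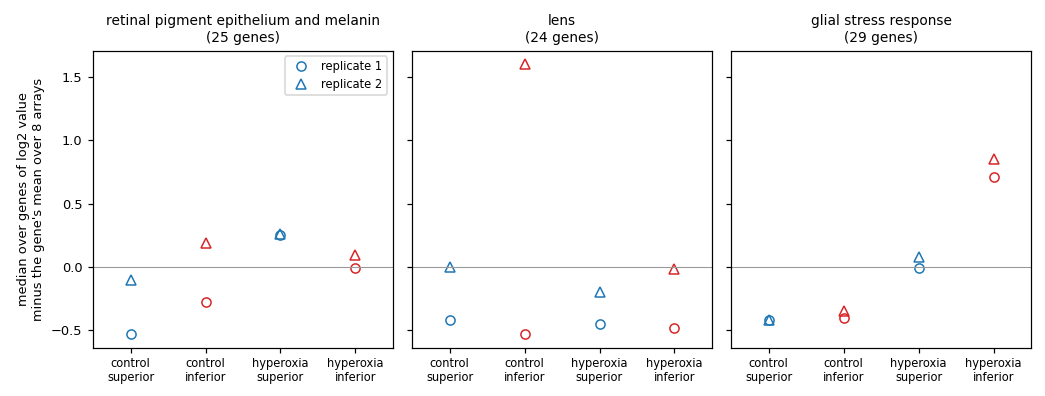
Median over the genes of a list of the log2 value less the mean of that gene over 8 arrays, for each array (circles for replicate 1, triangles for replicate 2, blue for superior and red for inferior). Pigment epithelium genes are highest in the hyperoxia superior samples, at 0.25 and 0.26, lens genes stand out on control inferior replicate 2 at 1.60, and glial stress genes reach 0.71 and 0.85 in hyperoxia inferior samples with little spread between replicates.

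*Tyr*, which encodes tyrosinase, the first enzyme of melanin synthesis, had the largest negative value among genes at an unadjusted p under 0.01. It had 5.14 and 5.39 in control superior, 5.76 and 6.82 in control inferior, 6.71 and 6.59 in hyperoxia superior and 5.66 and 6.25 in hyperoxia inferior samples. The inferior groups overlapped and spread widely. The differential response was -1.72 ± 0.44 (adjusted p = 0.637), and with the pigment epithelium covariate it was -0.95. *Oca2*, a melanosome channel gene, went from -0.95 to -0.37 with that covariate, and *Slc6a13*, a carrier for gamma-aminobutyric acid and taurine, from -0.63 to -0.37. *Slc16a12*, a carrier for creatine, was less altered, at -0.79 and -0.64. All genes named in this paragraph belong to the list from which the covariate was made. A smaller value with it is thus in part built in and is no separate check on them.

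Connective tissue and vessel genes followed. Of 22 genes of choroid, sclera and meninges, 6 were negative and 0 positive (27.3%, against 2.49%), with a median of -0.12; with the pigment epithelium covariate 2 were negative. *Vcan*, the matrix proteoglycan versican, had 7.13 and 7.20 in control superior, 7.78 and 7.90 in control inferior, 7.67 and 7.79 in hyperoxia superior and 7.71 and 7.69 in hyperoxia inferior samples. Only the control superior arrays stood apart, below the rest, as in 4.39% of all genes, and the regional difference of 0.68 in control retinas was -0.03 in hyperoxia. The differential response was -0.71 ± 0.13 (adjusted p = 0.367), and -0.60 with the pigment epithelium covariate. *Fmod*, fibromodulin, and *Ogn*, osteoglycin, gave -0.48 ± 0.16 and -1.04 ± 0.40; *Ogn* rested on control inferior replicate 2, at 7.41 against 6.15 to 6.68 on the other arrays, and was -0.49 without it. *Clec14a*, an endothelial surface protein, gave -0.67 ± 0.16, and the endothelial list had 2 negative and 0 positive members of 20 (10% negative, against 2.49%), with 1 negative without control inferior replicate 2 and with the pigment epithelium covariate. The 24 lens genes had a median of -0.69 with 0 genes past an unadjusted p of 0.05, and this rested on control inferior replicate 2: the median was 0.35 with 2 positive genes without it, and -1.46 with 17 negative genes without replicate 1. With the pigment epithelium covariate 5 lens genes were positive.

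**Figure D5:**
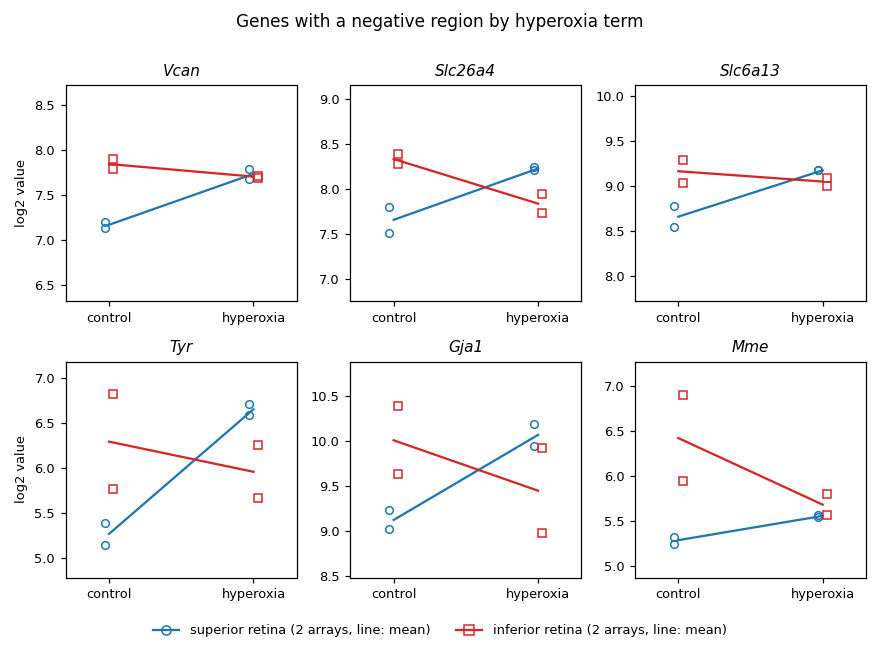
log2 values of 6 genes with a negative differential response, drawn as for the positive genes: blue circles for superior and red squares for inferior arrays, lines through the means of 2 arrays, and panels of the same height. In *Vcan*, *Slc26a4* and *Slc6a13* the superior retina starts below the inferior and meets or passes it in hyperoxia, and in *Tyr*, *Gja1* and *Mme* the control inferior arrays lie far apart.

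Further negative genes were not of 1 form. *Slc26a4*, which encodes the anion exchanger pendrin, had 7.51 and 7.80 in control superior, 8.27 and 8.39 in control inferior, 8.24 and 8.21 in hyperoxia superior and 7.73 and 7.94 in hyperoxia inferior samples. The control inferior arrays were highest, and the hyperoxia inferior arrays overlapped the control superior ones. It gave -1.06 ± 0.17 (adjusted p = 0.307), the smallest p of the genes named for a negative value, and -0.83 with the pigment epithelium covariate. *Gja1*, the gap junction protein connexin 43 of glia and pigment epithelium, gave -1.51 ± 0.44 and -0.88 with that covariate. *Tns1*, which links integrins to actin, gave -1.06 ± 0.25, with 10.36 and 10.01 in hyperoxia superior and between 9.06 and 9.58 on the other arrays, so that a regional difference was seen in hyperoxia (-0.86) more than in control retinas (0.20). *Cdon*, a hedgehog co-receptor, gave -0.92 ± 0.18. *Usp17ld*, a ubiquitin protease gene of a family of near copies whose probes may share signal, gave -1.40 ± 0.38, and *Gm5662*, a predicted gene between 2.66 and 3.61 on all arrays, gave -0.94 ± 0.26.

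Small RNAs and receptor families were mostly dim. Of 360 small RNA genes, 11 were positive and 26 negative (3.06% and 7.22%, against 2.94% and 2.49%), with a median of -0.06. *Mir186* and *Mir190b*, both microRNA genes, were among the 10 largest negative values. *Mir186* had 5.41 and 5.58 in control superior, 5.92 and 5.51 in control inferior, 5.73 and 5.76 in hyperoxia superior and 5.14 and 5.19 in hyperoxia inferior samples, with a differential response of -0.80 ± 0.19 (adjusted p = 0.593). *Mir190b* gave -0.91 ± 0.23, with 4.75 and 4.69 in hyperoxia superior and between 3.66 and 4.35 on the other arrays. An array of this kind labels total RNA and does not tell a mature microRNA from its precursor or from the transcript around it. The mature forms that RefSeq gives for both genes, with the seed (bases 2 to 8) in capitals, share no seed with each other.
mmu-miR-186-5p: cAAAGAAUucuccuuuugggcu
mmu-miR-186-3p: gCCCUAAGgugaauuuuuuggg
mmu-miR-190b-5p: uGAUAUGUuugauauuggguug
mmu-miR-190b-3p: aCUGAAUGucaagcauacucuca

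Of 1196 genes of olfactory and vomeronasal receptors, 64 were positive and 32 negative (5.35% and 2.68%, against 2.94% and 2.49% of all genes), with a median of 0.04. The counts were 104 and 50 without control inferior replicate 2, 52 and 41 without replicate 1, and 99 and 45 with the lens covariate, where 4.04%, 2.55% and 3.83% of all genes were positive. *Olfr118* and *Olfr43*, odorant receptor genes, gave 1.32 ± 0.34 and 1.17 ± 0.29 on probe sets between 3.07 and 4.78. *Lin7b*, a scaffold protein of synapses and cell junctions, gave 0.72 ± 0.15 with an inferior rise of 0.87 (adjusted p = 0.0138). *Wnt8a*, a Wnt ligand, gave -0.59 ± 0.16, and *Cnga2*, a channel subunit of olfactory neurons, gave -0.51 ± 0.13 on a probe set between 3.71 and 4.20. By the study's account, PCR bore out the array direction for most genes it took from its regional list, but not for *Wnt8a*.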

How the data were processed

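RNA of 8 pooled samples was hybridized to Affymetrix Mouse Gene 1.0 ST arrays. The deposited values are log2 intensities per probe set, background-corrected by RMA and summarised by median polish in Partek by the authors; no source used here gives versions or a build. They were used unchanged. Of 28853 probe sets, 21789 carry 1 symbol, 1621 several and 5443 none listed; 21698 of the first matched RefSeq genes by Entrez ID, and the brightest stood for each of 19938 genes.

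limma 3.58.1 (R 4.3.3) fitted 1 mean per group over the 8 arrays; the residual degrees of freedom were 4 and the prior ones 4.47. Benjamini-Hochberg adjustment ran across every probe set (threshold 0.05); unadjusted thresholds were 0.05 and 0.01. The code was tested on simulated data. The fold margin used the p of the methods' unmoderated 2-way model. Sequences are from RefSeq (GRCm38.p6), with motifs searched on both strands.

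Named genes are those past the adjusted p, the 15 largest positive and 10 largest negative genes at an unadjusted p under 0.01, those among the 4 smallest p of each list that describe it, genes the study measured by PCR, and label checks. *Nr2e3* and *C3*, also measured by PCR there, had no usable 1-symbol probe set and are not given. Members and lists were chosen with earlier results of these data known. Alternatives were the unmoderated model, quantile normalization, median centring, a filter at a mean of 6, 1-symbol probe sets, averaged probe sets per gene (for list medians), a variance trend, a robust prior, 2 replicate blocks, pigment epithelium and lens covariates, a log2 rule for the fold margin, and leaving out each array. List counts without either control inferior array and with the covariates were added after seeing the data.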

Additional observations from a re-analysis of the deposited data

Results flagged for a closer look

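The response of *Edn2* to hyperoxia differed between the regions by a test of that difference itself: the log2 change in the inferior retina exceeded that in the superior retina by 2.11 (limma, adjusted p = 0.00185). Both hyperoxia inferior arrays were above, and both control inferior arrays below, the other arrays.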

How the results depend on the processing

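*Edn2* kept its direction under all 19 alternatives, between 2.06 and 2.17. Its test was lost in the unmoderated 2-way model (2.11, adjusted p = 0.174; 0 probe sets past the threshold), with a replicate block within treatment (2.11, adjusted p = 0.0925; 0 probe sets, on 2 residual degrees of freedom) and with the pigment epithelium covariate (2.07, adjusted p = 0.0578; 0 probe sets). The count of 1 was 2 among probe sets with a mean log2 value of 6 or more, where *C1qb* joined it (adjusted p = 0.0357), and 3 with a variance trend, where *C1qb* (adjusted p = 0.02) and *Fgf2* (adjusted p = 0.0253) did. Leaving out each array gave 1 to 30 probe sets past the threshold; the 30, of which 3 were positive, came without control inferior replicate 1, when control inferior replicate 2, the array with most lens signal, alone stood for its group, and they included *C1qb*, *Timp1*, *Tyr*, *Ogn* and *Mme*. The fold margin selection of 137 was 90 (74 positive) with the filter on dim probe sets, 307 (170 positive) with a log2 difference over 0.5 in its place, and 125 to 205 without each array.

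The replicate numbers of the labels were not shown to pair samples: correlations of replicate differences between groups ranged from -0.02 to 0.14. With the number as a replicate block over all arrays, 1 probe set passed, *Edn2* at 2.11 (adjusted p = 0.00888). Of the other named genes, only *Hif1a* and *Opn1mw*, both near 0, turned sign: *Hif1a* was -0.02 with the pigment epithelium covariate, 0 with the lens covariate and -0.05 to 0.10 without each array, and *Opn1mw* was 0.01 with the lens covariate and -0.21 to 0.19 without each array. Medians of the 40 lists stayed within the spread used for them in 689 of the comparisons with an alternative and moved further in 111. The median of the lens list was 0.77 with the pigment epithelium covariate. With 2 arrays per group the 95% interval of a probe set of median spread reached 0.35 on either side.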
